A study of Mus musculus with 6 samples.

Results

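The 46 genes described here encode the kinases, cyclins, kinesins, kinetochore proteins and spindle proteins that carry a cell through mitosis, with 2 transcription factors that drive many of them. They were chosen by name from the textbook machinery of mitosis and all were kept whatever their change. They are 46 of the 54146 genes counted in each library, and all 46 passed the filter on low counts. RNA came from tumors of 4T1, a mouse mammary carcinoma line, taken 3 weeks after the cells were injected orthotopically into nude mice, athymic animals, at the mammary fat pad. The compared groups were 3 samples of wild-type tumor and 3 samples of tumor from Mki67-/- cells. Those cells lack Ki-67, the nuclear protein used in pathology to mark cycling cells. All 6 samples came from tumors grown in the same kind of host, and the age of the mice is not given in the sources used here. Whether the knockout cells were 1 clone or several is not given either, so a difference between clones and an effect of the knockout cannot be told apart. The replicates are separate samples by their titles, and nothing in the labels says that they came from separate animals, so p-values measure the spread between these samples.

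Entry into mitosis depends on Cdk1 bound to A-type and B-type cyclins, and Cdc25 phosphatases switch that kinase on. Kinetochores then attach chromosomes to the spindle, the spindle checkpoint holds the anaphase-promoting complex (APC/C) in check until all are attached, and cytokinesis follows. The genes of this machinery are transcribed mainly in late S phase, G2 and mitosis under the MuvB complex with B-Myb (Mybl2) and FoxM1. Many of their promoters hold a short element known as the cell cycle genes homology region (CHR), often with CCAAT boxes that bind NF-Y. In a bulk tumor their transcripts therefore report on cycling cells of any type.

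The promoters show what the group shares in sequence. RefSeq promoter windows of build GRCm38.p6, 250 bases before to 50 after the start, were matched for 37 of the 46 genes. Those of Aurkb, Dlgap5, Spc24, Tpx2, Kif20a, Ccna2, Foxm1, Cdc25c and Incenp are not analysed here. The CHR was searched as TTTGAA or TTCGAA on both strands, and the CCAAT box as CCAAT on both strands. The windows of 5 genes are printed 5′ to 3′ with these motifs in capitals. Ube2c and Cdc25b had transcripts that rose in the knockout tumors and hold each motif, Kif23 rose and has its CHR next to the start, Cdk1 did not pass the test and holds 2 CHR matches, and Birc5 rose and holds neither motif.
Ube2c (chr2:164769679-164769978, plus strand): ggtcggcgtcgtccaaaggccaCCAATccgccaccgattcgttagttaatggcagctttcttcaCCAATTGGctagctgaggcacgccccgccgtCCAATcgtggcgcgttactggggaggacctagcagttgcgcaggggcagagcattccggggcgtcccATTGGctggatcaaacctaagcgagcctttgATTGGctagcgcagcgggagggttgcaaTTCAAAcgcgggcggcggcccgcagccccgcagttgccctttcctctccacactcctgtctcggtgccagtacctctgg
Cdc25b (chr2:131186698-131186997, plus strand): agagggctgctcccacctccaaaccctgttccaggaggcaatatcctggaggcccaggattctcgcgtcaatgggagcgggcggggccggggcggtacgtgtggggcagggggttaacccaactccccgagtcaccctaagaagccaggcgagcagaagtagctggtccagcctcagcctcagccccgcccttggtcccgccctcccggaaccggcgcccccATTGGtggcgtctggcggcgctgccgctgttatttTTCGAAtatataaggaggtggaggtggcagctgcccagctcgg
Kif23 (chr9:61946750-61947049, minus strand): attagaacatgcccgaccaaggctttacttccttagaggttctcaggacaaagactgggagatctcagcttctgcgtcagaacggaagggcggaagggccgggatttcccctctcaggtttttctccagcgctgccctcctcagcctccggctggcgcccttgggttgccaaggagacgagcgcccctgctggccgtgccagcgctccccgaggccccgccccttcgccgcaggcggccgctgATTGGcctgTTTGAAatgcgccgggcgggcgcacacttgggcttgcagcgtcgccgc
Cdk1 (chr10:69352863-69353162, minus strand): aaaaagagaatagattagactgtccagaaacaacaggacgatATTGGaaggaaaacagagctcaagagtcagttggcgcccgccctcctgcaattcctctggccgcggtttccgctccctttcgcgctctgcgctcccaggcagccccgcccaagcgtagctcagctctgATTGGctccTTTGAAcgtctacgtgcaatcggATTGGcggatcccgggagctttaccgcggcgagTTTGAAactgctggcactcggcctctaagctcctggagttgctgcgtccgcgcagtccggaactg
Birc5 (chr11:117848987-117849286, plus strand): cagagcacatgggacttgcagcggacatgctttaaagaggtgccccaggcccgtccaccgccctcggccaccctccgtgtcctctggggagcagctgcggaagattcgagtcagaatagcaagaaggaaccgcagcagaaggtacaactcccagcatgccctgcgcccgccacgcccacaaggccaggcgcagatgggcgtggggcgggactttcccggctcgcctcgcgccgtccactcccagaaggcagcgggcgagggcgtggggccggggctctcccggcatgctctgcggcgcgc
Counted from the start, with the first transcribed base as 1, the CHR begins at -29 in Ube2c, at 8 in Cdc25b, at 3 in Kif23 and at -71 and -15 in Cdk1. Motifs were counted by gene, and a gene with several windows, such as Ect2 or Prc1, was counted if any of them held the motif. The CHR was present for 28 of the 37 genes (75.7%), against 21.7% of the 27025 genes with a window. The CCAAT box was in 26 (70.3%) against 41.1%, and both motifs together were in 24 (64.9%) against 9.65%. Some matches overlap, as for the pair of CCAAT boxes on opposite strands near the 5′ end of the Ube2c window. E2F-type matches (TTTGGCG or TTTCCCG, and likewise TTTGCCG or TTTCGCG, both strands) were in 6 of 37 (16.2%) against 7.65%. Among these 37 genes, the CHR was present for 10 of the 13 that rose and for 18 of the 24 others. These counts describe letters in a window and not occupied sites.

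None of the 46 transcripts was called lower in the Mki67 knockout tumors, and many were slightly higher. Of the 46 genes, 20 rose, none fell and 26 did not pass the test (edgeR quasi-likelihood test, adjusted p under 0.05 over 19900 genes). The rises ran from 1.22-fold for Kif2c to 1.71-fold for Foxm1. The transcript of the targeted gene moved the other way. Mki67 stood at 359.6, 395 and 325 CPM (counts relative to each library's TMM-scaled total) in wild-type replicates 1, 2 and 3 and at 98.7, 117 and 139 CPM in knockout replicates 1, 2 and 3, 3.04-fold lower (log2 fold change -1.61, SE 0.14, adjusted p = 6.79e-05). It was still counted in every knockout library. Which part of the gene was altered is not given in the sources used here, and the libraries mix tumor and host cells.

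Against the whole transcriptome, the count of higher genes was large and that of lower genes small. Over all genes tested, 17.6% were called higher and 18.4% lower, and among the mitotic genes 43.5% were higher and 0 were lower. Their median log2 fold change was 0.26, and the median over all genes was 0.05. The value was above 0 for 41 genes and below 0 for 5. All knockout libraries lay above all wild-type libraries for 24 of the 46, against 24.5% of all genes. None of the 46 showed the opposite order, against 26% of all genes. Added up, the 46 transcripts took 3045, 2733 and 2623 CPM in wild-type replicates 1, 2 and 3 and 3228, 3476 and 3401 CPM in the knockout replicates. The groups do not overlap in this sum, and wild-type replicate 1 came nearest to the knockout range. In bulk RNA, more cycling cells and more RNA per cycling cell cannot be told apart.

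The count of 20 and its distance from the background depended on which libraries were used. Without wild-type replicate 3, 4 of the 46 were higher, and this share of 8.70% lay at the 8.76% of all genes called higher in the same fit. Without wild-type replicate 2 the count was 6 (13.0%), near the 9.4% of all genes. It was 10 (21.7% against 8.61% of all genes) without wild-type replicate 1 and 11 (23.9% against 12.6%) without knockout replicate 3. Without knockout replicate 1 it was 22 (47.8% against 20.6%), and without knockout replicate 2 it was 16 (34.8% against 21.1%). Knockout replicates 2 and 3 stood apart in mapping, with 54.6% and 52.7% unmapped reads against 30.8% to 33.9% in the other 4 libraries. With only the libraries under 40% unmapped reads, which leaves a single knockout library assumed to vary like the others, 8 genes were higher (17.4% against 13.9% of all genes) and 1, Prc1, was lower. With the unmapped share as a covariate 11 were higher (23.9% against 11.7%) and again Prc1 was lower. Cdc25c, Birc5, Ube2c and Tpx2 were called higher under each of the 19 alternatives run. Of the other 16 calls, those of Pttg1 and Kif2c were kept least often, under 9 alternatives each.

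**Figure D1:**
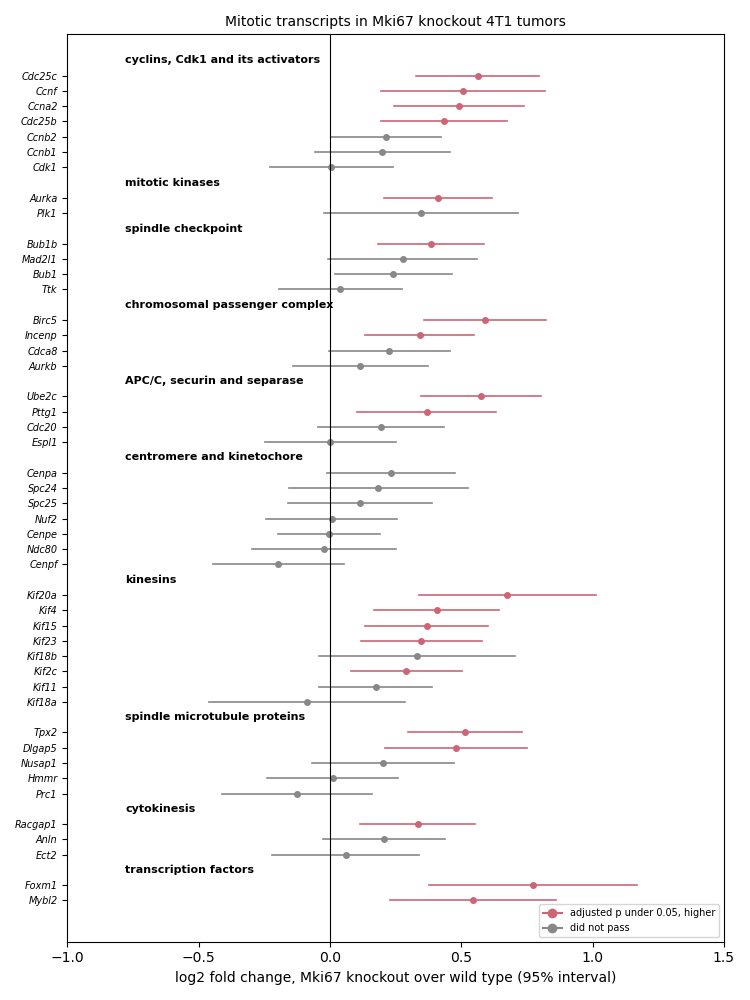
Log2 fold change of the 46 mitotic genes, knockout over wild type, with 95% intervals from the edgeR fit (3 libraries per group), grouped by role. Red marks the 20 genes past adjusted p 0.05, all to the right of 0, and the 7 centromere and kinetochore genes are all grey.

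Both transcription factors rose, and Foxm1 rose most of the 46 genes. Counts by role, here and below, rest on 2 to 8 genes each and stand beside 17.6% of all genes called higher. Foxm1 (ENSMUSG00000001517, chr6:128362967-128376146, plus strand), the forkhead factor that activates late cell cycle genes, was at 49.8, 46.3 and 41.5 CPM in the wild-type libraries and 57.2, 94.9 and 83.3 CPM in the knockout libraries. Knockout replicates 2 and 3 were the highest, and replicate 1 lay just above the wild-type range. The rise was 1.71-fold (log2 fold change 0.77, SE 0.17, adjusted p = 0.00945), but it did not pass with only the libraries under 40% unmapped reads (adjusted p = 0.0896) or without wild-type replicate 3 (adjusted p = 0.052). Mybl2, which encodes B-Myb, was at 23.6, 20.5 and 18.5 CPM in the wild-type libraries and 27.4, 35.5 and 28.3 CPM in the knockout libraries. The order of the knockout libraries was again 2, 3, 1, the groups did not overlap, and the gene rose 1.46-fold (log2 fold change 0.54, SE 0.14, adjusted p = 0.016). This call was kept under 15 of the 19 alternatives and was lost with the unmapped share as a covariate. Foxm1 lies on chromosome 6, where 26.5% of the genes tested were called higher. Shares above the 17.6% of all genes were also found on chromosome 14, which holds Dlgap5 (28.1%), and on chromosome 18, which holds Cdc25c and Kif20a (20.3%). Mad2l1 lies on chromosome 6 as well, and no member lies on chromosome 8, where 43.3% were higher. With chromosomes 6, 8 and 14 left aside, 18 of 43 mitotic genes were higher, against 15.1% of all genes there. With chromosome 18 left aside too, 16 of 41 were higher, against 15.0% of all genes.

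Among the cyclins and the regulators of Cdk1, 4 of 7 rose, and the kinase itself and its B-type cyclins did not pass. Ccna2, cyclin A, which acts in S phase and at mitotic entry, was at 119, 108 and 99.1 CPM in the wild-type libraries and 135, 161 and 163 CPM in the knockout libraries. The groups were apart, and it rose 1.41-fold (log2 fold change 0.49, SE 0.11, adjusted p = 0.00879). Cdc25c (ENSMUSG00000044201, chr18:34732993-34751533, minus strand), a phosphatase that removes inhibitory phosphates from Cdk1, was at 17.6, 15.7 and 15.4 CPM in the wild-type libraries and 23.6, 24.1 and 24.3 CPM in the knockout libraries. Its knockout values were nearly level with each other and all above the wild-type range, a 1.48-fold rise (log2 fold change 0.56, SE 0.10, adjusted p = 0.00361). The related phosphatase gene Cdc25b was at 59.6, 53.5 and 55.5 CPM in the wild-type libraries and 67.8, 85.6 and 74.5 CPM in the knockout libraries, 1.35-fold higher (adjusted p = 0.0133). Ccnf, cyclin F, the substrate-binding part of a ubiquitin ligase, was at 39.7, 36.6 and 37.4 CPM in the wild-type libraries and 43.3, 63.6 and 54.8 CPM in the knockout libraries, 1.42-fold higher (adjusted p = 0.0203). Both were lowest in replicate 1 of the knockout libraries and highest in replicate 2.

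Cdk1, the catalytic kinase of mitotic entry, was at 145, 124 and 124 CPM in the wild-type libraries and 144, 123 and 127 CPM in the knockout libraries. These ranges almost coincide, with a log2 fold change of 0.01 and a 95% interval of -0.23 to 0.24. Ccnb2, a B-type cyclin, was at 85.4, 75.2 and 72.96 CPM in the wild-type libraries and 87.7, 94.01 and 88.97 CPM in the knockout libraries, and every knockout library lay above every wild-type library. The difference was small and did not pass (log2 fold change 0.21, 95% interval 0.01 to 0.42, adjusted p = 0.0998). Ccnb1, the main B-type cyclin, had a wild-type mean of 64.7 ± 7.24 CPM against a knockout mean of 74.2 ± 7.36 CPM (SD over 3 libraries), and its groups overlapped (95% interval -0.06 to 0.46). Cdk1's activating phosphatases and its cyclin A were thus called higher while the kinase was not, although these differences between genes were not tested against each other. With only the libraries under 40% unmapped reads, 1 of the 7 genes, Cdc25c, was called higher.

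Of the mitotic kinases not placed under another role, Aurka rose and Plk1 did not pass. The kinase genes Cdk1, Bub1, Ttk and Aurkb, given under other roles, did not pass either. Aurka, the centrosome and spindle pole kinase, was at 43.4, 38.1 and 39.7 CPM in the wild-type libraries and 52.9, 56.3 and 51.8 CPM in the knockout libraries, without overlap and 1.33-fold higher (log2 fold change 0.41, SE 0.09, adjusted p = 0.00857). Plk1, a kinase that acts from mitotic entry to cytokinesis, was at 48.2, 46.8 and 45.4 CPM in the wild-type libraries and 45.3, 74.7 and 58.7 CPM in the knockout libraries. Its knockout replicate 1 lay just below all 3 wild-type libraries while replicates 2 and 3 lay above them, and the 95% interval of -0.02 to 0.72 was among the widest of the list.

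In the spindle checkpoint, 1 of 4 rose (25%, against 17.6% of all genes). Bub1b, which encodes BubR1, a part of the complex that inhibits the APC/C, was at 63.6, 62.2 and 56.3 CPM in the wild-type libraries and 76.5, 83.9 and 77.2 CPM in the knockout libraries, 1.30-fold higher with separate groups (adjusted p = 0.0106). Bub1, a checkpoint kinase, was at 47.6, 40.4 and 40.1 CPM in the wild-type libraries and 51.3, 48.8 and 51.4 CPM in the knockout libraries and also had separate groups, but did not pass (adjusted p = 0.0842). Mad2l1, which encodes the checkpoint protein Mad2, was at 55.7, 49.2 and 47.5 CPM in the wild-type libraries and 71.1, 52.5 and 60.9 CPM in the knockout libraries. Its order was the reverse of Plk1's, with knockout replicate 1 the highest and replicate 2 inside the wild-type range (adjusted p = 0.115). Ttk, the kinase also called Mps1, had a wild-type mean of 30.5 ± 1.39 CPM against a knockout mean of 31.4 ± 2.89 CPM (SD over 3 libraries), with a log2 fold change of 0.04 and a 95% interval of -0.19 to 0.27.

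The chromosomal passenger complex, which corrects wrong attachments and directs cytokinesis, had 2 of its 4 genes higher. Birc5 (ENSMUSG00000017716, chr11:117849251-117855743, plus strand), which encodes survivin, was at 75.04, 62.4 and 61.9 CPM in the wild-type libraries and 95.96, 106 and 98.1 CPM in the knockout libraries. The knockout libraries were close together and all above the wild-type range, a 1.51-fold rise (log2 fold change 0.59, SE 0.10, adjusted p = 0.00289). Incenp, the scaffold of the complex, was at 87.5, 91.02 and 83.6 CPM in the wild-type libraries and 104, 121 and 108 CPM in the knockout libraries and rose 1.27-fold (adjusted p = 0.0196). Cdca8, which encodes borealin, was at 51.3, 43.4 and 47.8 CPM in the wild-type libraries and 54.1, 60.5 and 52.02 CPM in the knockout libraries, with groups that did not overlap and a change that did not pass (adjusted p = 0.113). Aurkb, the kinase of the complex, had a wild-type mean of 43.05 ± 1.85 CPM against a knockout mean of 46.7 ± 6.44 CPM (SD over 3 libraries), with overlapping groups and a 95% interval of -0.14 to 0.37. The 4 subunits of this complex thus ran from a log2 fold change of 0.12 for its kinase to 0.59 for survivin.

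Genes of the APC/C pathway and of sister separation followed the same split. Ube2c (ENSMUSG00000001403, chr2:164769898-164778822, plus strand), the ubiquitin-conjugating enzyme of the APC/C, was at 108, 87.6 and 96.5 CPM in the wild-type libraries and 138, 152 and 146 CPM in the knockout libraries. All 3 knockout libraries were higher, by 1.49-fold (log2 fold change 0.58, SE 0.10, adjusted p = 0.00301). Pttg1, securin, the inhibitor of separase, was at 40.1, 33.1 and 35.3 CPM in the wild-type libraries and 40.9, 49.4 and 49.8 CPM in the knockout libraries and rose 1.29-fold (adjusted p = 0.0373), with knockout replicate 1 only just above the wild-type range. Cdc20, the activator of the APC/C, was at 93.2, 84.96 and 80.3 CPM in the wild-type libraries and 91.8, 111 and 93.1 CPM in the knockout libraries, with overlapping groups and an adjusted p = 0.179. Espl1, separase, had a wild-type mean of 33.8 ± 1.48 CPM against a knockout mean of 33.8 ± 3.99 CPM (SD over 3 libraries), a log2 fold change of 0.00 with a 95% interval of -0.25 to 0.25.

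**Figure D2:**
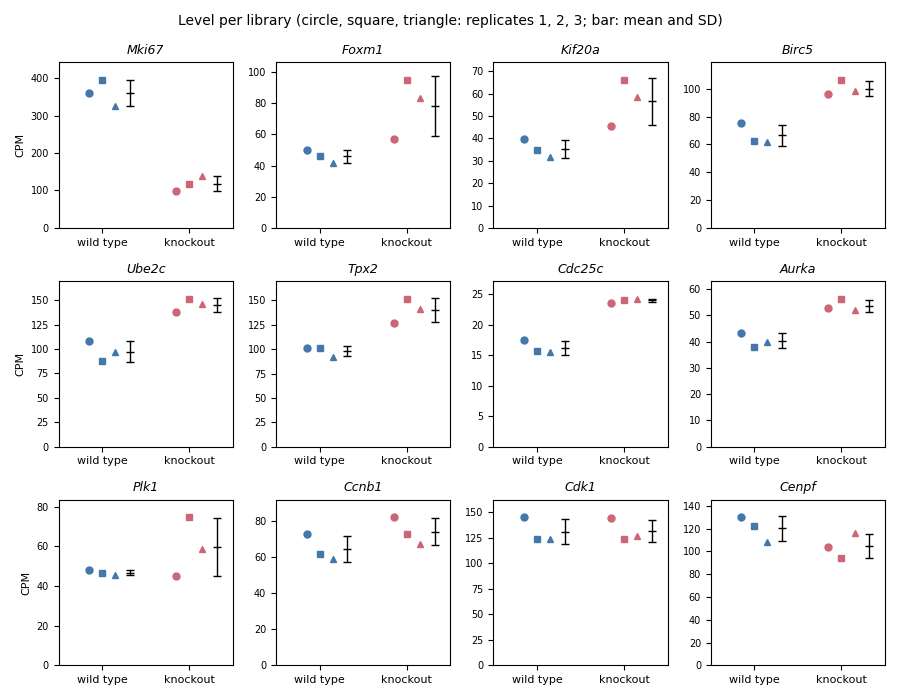
CPM in each library for Mki67 and 11 mitotic genes, with the mean and SD of each group (n = 3) at the right of its points; each axis starts at 0. Mki67 is lower in every knockout library, Birc5, Ube2c, Tpx2, Cdc25c and Aurka are higher in every knockout library, and Cdk1 and Cenpf overlap between the groups.

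None of the 7 centromere and kinetochore genes passed, in either direction. Cenpa, the histone H3 variant of centromeres, was at 125, 101 and 101 CPM in the wild-type libraries and 133, 128 and 123 CPM in the knockout libraries, with knockout replicate 3 inside the wild-type range (95% interval -0.01 to 0.47). Cenpe, a kinetochore kinesin, was at 99.9, 97.2 and 93.00 CPM in the wild-type libraries and 91.4, 94.8 and 103 CPM in the knockout libraries, where the groups overlap and the 95% interval was -0.20 to 0.19. Cenpf, a large kinetochore protein, was at 130.0, 123 and 108 CPM in the wild-type libraries and 104, 94.5 and 116 CPM in the knockout libraries and had the lowest log2 fold change of all 46 genes, at -0.20 (adjusted p = 0.19). The 4 subunits of the Ndc80 complex, which binds the ends of spindle microtubules, had log2 fold changes of -0.02 for Ndc80, 0.01 for Nuf2, 0.18 for Spc24 and 0.11 for Spc25. All 7 intervals lay within 1.5-fold in either direction. Of the 19 alternatives, the stranded column alone gave a call in this group, for Cenpa (log2 fold change 0.34, adjusted p = 0.0209).

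The kinesins had 5 of 8 genes higher. Kif20a, a kinesin of the central spindle and midbody, was at 39.7, 35.04 and 31.7 CPM in the wild-type libraries and 45.4, 66.1 and 58.6 CPM in the knockout libraries. Replicates 2 and 3 of the knockout were again the highest, and the gene rose 1.60-fold (log2 fold change 0.68, SE 0.15, adjusted p = 0.00849). Kif23, a subunit of centralspindlin at the spindle midzone, was at 73.6, 69.99 and 63.8 CPM in the wild-type libraries and 79.1, 95.4 and 89.4 CPM in the knockout libraries, 1.27-fold higher (adjusted p = 0.0273). The chromokinesin gene Kif4 was at 31.4, 29.9 and 29.3 CPM in the wild-type libraries and 36.2, 44.8 and 39.1 CPM in the knockout libraries, 1.33-fold higher (adjusted p = 0.0169). These 3 genes had the same order of knockout libraries and separate groups. With only the libraries under 40% unmapped reads, Kif15 was the 1 kinesin called higher.

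Kif15, a plus-end motor that helps to hold spindle poles apart, was at 42.9, 35.7 and 37.9 CPM in the wild-type libraries and 51.5, 46.3 and 52.6 CPM in the knockout libraries, 1.29-fold higher (adjusted p = 0.0234). Here knockout replicate 2 was the lowest of its group. Kif2c, which encodes MCAK, a microtubule depolymerase at centromeres, was at 39.3, 36.1 and 35.1 CPM in the wild-type libraries and 42.3, 46.3 and 46.7 CPM in the knockout libraries and rose 1.22-fold (adjusted p = 0.0382), the smallest change among those called. Kif11, which encodes Eg5, the motor that separates the poles, was at 77.7, 74.9 and 70.5 CPM in the wild-type libraries and 90.6, 76.1 and 85.1 CPM in the knockout libraries and did not pass (adjusted p = 0.178). The 2 kinesin-8 genes differed in direction without passing, Kif18a with a wild-type mean of 18.9 ± 2.08 CPM against a knockout mean of 17.8 ± 3.61 CPM (SD over 3 libraries) and Kif18b with a wild-type mean of 21.7 ± 1.64 CPM against a knockout mean of 27.4 ± 6.2 CPM (SD over 3 libraries).

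Among spindle microtubule proteins, 2 of 5 rose. Tpx2 (ENSMUSG00000027469, chr2:152847964-152895321, plus strand), which activates Aurora A on the spindle, was at 101, 101 and 92.3 CPM in the wild-type libraries and 127, 152 and 141 CPM in the knockout libraries. The knockout libraries were all above the wild-type range, by 1.43-fold (log2 fold change 0.51, SE 0.10, adjusted p = 0.00391). Dlgap5, which encodes the microtubule-binding protein HURP, was at 34.1, 28.7 and 30.8 CPM in the wild-type libraries and 37.8, 48.3 and 44.4 CPM in the knockout libraries, 1.40-fold higher (adjusted p = 0.0142). Nusap1, a microtubule-bundling protein, was at 81.97, 66.5 and 66.5 CPM in the wild-type libraries and 88.9, 72.7 and 85.6 CPM in the knockout libraries, and its groups overlapped (adjusted p = 0.213). Prc1, the protein that cross-links the central spindle, was at 70.7, 66.02 and 60.4 CPM in the wild-type libraries and 49.8, 66.99 and 64.2 CPM in the knockout libraries, and knockout replicate 1 was the lowest of the 6 libraries. Its log2 fold change of -0.12 did not pass, while it was called lower with the unmapped share as a covariate and with only the libraries under 40% unmapped reads. Hmmr, a spindle-associated protein, had a wild-type mean of 46.3 ± 5.52 CPM against a knockout mean of 46.6 ± 3.13 CPM (SD over 3 libraries), with a 95% interval of -0.24 to 0.26.

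For cytokinesis, 1 of 3 genes rose (33.3%, against 17.6% of all genes). Racgap1, the other subunit of centralspindlin, was at 107, 99.05 and 99.4 CPM in the wild-type libraries and 114, 138 and 132 CPM in the knockout libraries, 1.26-fold higher with separate groups (adjusted p = 0.0265). Its partner Kif23 had a close value, 1.27-fold. Anln, anillin, which organises the contractile ring, was the most abundant of the 46 in CPM, at 219, 202 and 176 CPM in the wild-type libraries and 224, 225 and 240.1 CPM in the knockout libraries. All knockout libraries lay above all wild-type libraries, by a margin that did not pass (adjusted p = 0.145). Ect2, which activates RhoA at the cell equator, was at 82.4, 69.9 and 62.9 CPM in the wild-type libraries and 82.9, 67.5 and 74.00 CPM in the knockout libraries, with overlapping groups (adjusted p = 0.72). None of the 3 was called higher with only the libraries under 40% unmapped reads or with the unmapped share as a covariate.

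Of the 26 genes that did not pass, 24 had 95% intervals within 1.5-fold in either direction; Plk1 and Kif18b were the others. Per kilobase of exon, wild-type levels ran from 1.92 CPM per kilobase for Kif18a to 50.8 for Ccnb2, with 46.1 for Cdc20 and 37.5 for Ube2c. Ccna2, Cdc25c, Ube2c, Kif20a, Kif4 and Prc1, 6 genes in all, had over 10% of their exonic bases shared with another gene, and reads in the shared parts are ambiguous between the genes.

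The knockout libraries differed among themselves in a way that followed base composition. Median differences from the wild-type mean over the 46 genes were alike, at 0.23, 0.33 and 0.27 on the log2 CPM scale in knockout replicates 1, 2 and 3. The spread over genes was wider in replicate 2, with an SD of 0.33 against 0.21 and 0.22. Replicate 2 was the highest knockout library for 23 genes, replicate 1 for 12 and replicate 3 for 11. Across the 46 genes, the difference in replicate 2 rose with the GC content of the longest transcript (Pearson r = 0.68, Spearman rho = 0.70). In replicate 3 the values were 0.35 and 0.35, and in replicate 1 they were 0.05 and 0.07. All points of a panel share a library, so these correlations are descriptions. Over all 19891 tested genes with a GC value, Pearson r was 0.02, 0.25 and 0.06 in replicates 1, 2 and 3.

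**Figure D3:**
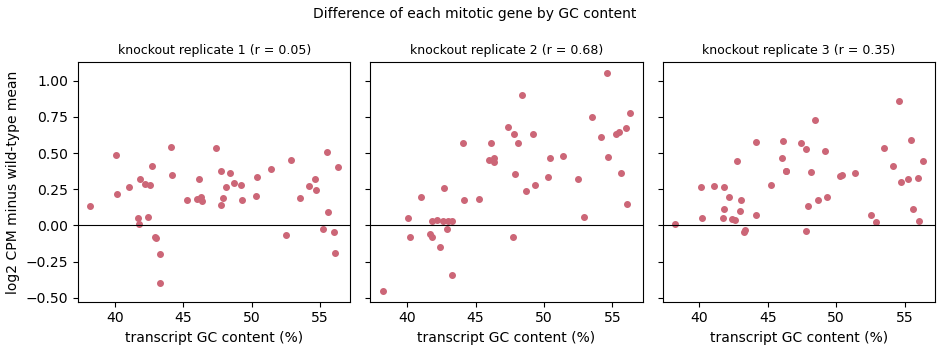
Difference of each of the 46 genes from the wild-type mean (log2 CPM) against GC content of its longest transcript (%), for each knockout library. The points slope upward in replicate 2 (r = 0.68), less in replicate 3 (r = 0.35) and hardly in replicate 1 (r = 0.05).

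The 23 genes with the higher GC content, from 47.8% to 56.3%, had median differences of 0.26, 0.48 and 0.34 in the 3 knockout libraries. For the 23 with 38.2% to 47.4% GC they were 0.20, 0.03 and 0.20. Of the genes called higher, 13 were in the first set and 7 in the second. With each library's trend with GC removed, an alternative chosen after seeing the data, 24 genes were higher and 0 lower, 13 and 11 in the respective sets, and all 20 calls were kept. The added calls were Bub1, Mad2l1, Kif11 and Nusap1.

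The other genes of the same machinery, 122 in 5 lists chosen by function, did not share the rise as a whole. They had 23 higher and 17 lower, which is 18.9% and 13.9%, near the shares of 17.6% and 18.4% over all genes, and a median log2 fold change of 0.04. Only the list of other spindle, cytokinesis and entry genes had a larger share of higher genes than the background, 12 of 34 (35.3%), with 3 lower and a median of 0.23. Of the 23 higher genes, 9 lie on chromosome 8, out of the 12 listed genes there.

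In that list, Ckap2l, a spindle protein, was at 49.1, 45.3 and 40.1 CPM in the wild-type libraries and 77.6, 97.9 and 94.9 CPM in the knockout libraries, a 2.01-fold rise (log2 fold change 1.01, SE 0.12, adjusted p = 0.0004). Ckap2, of the same family, was at 34.8, 33.7 and 33.5 CPM in the wild-type libraries and 60.9, 68.5 and 64.9 CPM in the knockout libraries and rose 1.90-fold (log2 fold change 0.93, SE 0.09, adjusted p = 0.000102), and it lies on chromosome 8. These were the largest rises among the genes named from the 5 lists. Cdca3, a mitotic entry factor, rose 1.57-fold, Pimreg 1.57-fold, the kinase gene Pbk 1.60-fold and Shcbp1, of the midbody, 1.55-fold. Among those that fell, Wee1, the kinase that holds Cdk1 inactive and so opposes the Cdc25 phosphatases, was at 66.2, 74.2 and 69.3 CPM in the wild-type libraries and 45.9, 47.8 and 44.01 CPM in the knockout libraries. Its groups did not overlap, and it was 1.52-fold lower (log2 fold change -0.61, SE 0.09, adjusted p = 0.0011), a call kept under all 19 alternatives. Pkmyt1, the gene of another Cdk1-inhibiting kinase in this list, went the other way. It was 1.48-fold higher (log2 fold change 0.57, adjusted p = 0.0267), a call kept under 12 of the 19 alternatives. Psrc1, a spindle protein, was 1.83-fold lower, and Numa1, which anchors microtubules at the poles, was 1.28-fold lower (adjusted p = 0.048).

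The other kinetochore and centromere genes had 5 higher and 4 lower of 35, with a median of 0.06. Both shares, 14.3% and 11.4%, lay under the 17.6% and 18.4% of all genes. Cenpt and Cenpn, of the inner kinetochore and both on chromosome 8, rose 1.51-fold and 1.49-fold, and Cenpm rose 1.34-fold, Ska3 1.34-fold and the cohesin protector gene Sgo1 1.26-fold. Zwint, a kinetochore protein, was at 181, 180.1 and 179 CPM in the wild-type libraries and 131, 114 and 107 CPM in the knockout libraries, with every knockout library lower (1.53-fold, log2 fold change -0.62, SE 0.10, adjusted p = 0.00178). Mis12 fell by 0.50 and Cenpc1, the inner kinetochore scaffold, fell by 0.44 on the log2 scale. Bub3, which brings Bub1 and BubR1 to kinetochores, was at 155, 151 and 146 CPM in the wild-type libraries and 117, 119 and 116 CPM in the knockout libraries, and it fell by 0.36 where Bub1b rose.

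The further APC/C genes, subunits together with Fzr1, Ube2s and Fbxo5, had 1 higher and 3 lower of 17, with a median of -0.04. These were 5.88% and 17.6%, against 17.6% and 18.4% of all genes. Cdc16 on chromosome 8 rose 1.40-fold, and Cdc27, Anapc13 and Anapc16 fell by 0.37, 0.50 and 0.41 on the log2 scale. Augmin and gamma-tubulin ring genes, which nucleate spindle microtubules, had 2 higher and 3 lower of 17, with a median of -0.03. Their shares were 11.8% and 17.6%, beside the same shares of all genes. Tubgcp3 and Haus8, both on chromosome 8, rose 1.44-fold and 1.34-fold, and Tubgcp5, Nedd1 and Haus6 were 1.63-fold, 1.43-fold and 1.31-fold lower.

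The regulators upstream of the mitotic genes, the MuvB, DREAM and E2F genes, had 3 higher and 4 lower of 19, and their median was -0.15. These shares, 15.8% and 21.1%, lay near the 17.6% and 18.4% of all genes. Rb1, the retinoblastoma protein that restrains E2F factors, was at 29.8, 26.2 and 30.01 CPM in the wild-type libraries and 14.5, 14.2 and 15.3 CPM in the knockout libraries. All knockout libraries were near the same level, 1.95-fold below wild type (log2 fold change -0.97, SE 0.10, adjusted p = 0.000246), and 14.9% of its exonic bases are shared with other genes. E2f4, the E2F member of the repressive DREAM complex, was at 71.2, 76.01 and 70.1 CPM in the wild-type libraries and 112, 132 and 123 CPM in the knockout libraries, 1.69-fold higher (log2 fold change 0.76, SE 0.09, adjusted p = 0.000448), and lies on chromosome 8, as does Tfdp1, a dimer partner of E2F factors, 1.28-fold higher. E2f2 rose 1.31-fold. Of the MuvB core, Lin9 was at 30.1, 26.2 and 29.00 CPM in the wild-type libraries and 21.6, 17.5 and 19.1 CPM in the knockout libraries and fell by 0.55 on the log2 scale, Lin54 fell by 0.34 and Rbbp4 fell by 0.52. Lin37 and Lin52, also of this core, were not called in either direction. The factors that bind this core in the active phase, Mybl2 and Foxm1, were called higher, as given above.

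**Figure D4:**
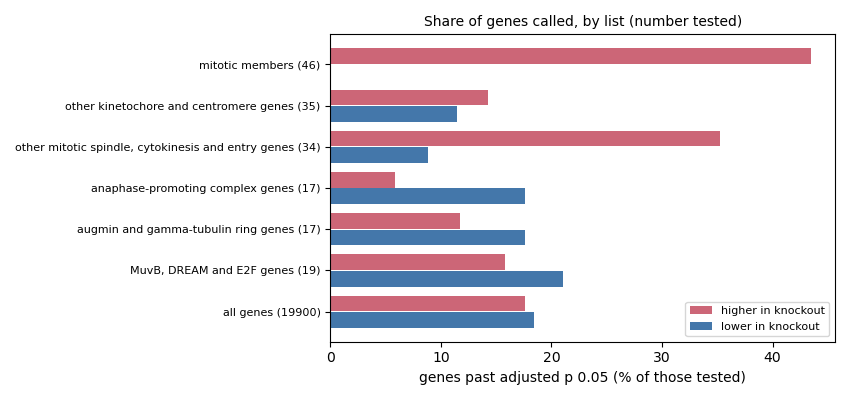
Share of tested genes called higher (red) or lower (blue) in knockout tumors at adjusted p 0.05, for the 46 mitotic genes, 5 further lists and all 19900 genes. The mitotic genes show 43.5% higher and no blue bar, the other spindle, cytokinesis and entry genes 35.3% higher, and the remaining lists 5.88% to 15.8% higher and 11.4% to 21.1% lower, against 17.6% and 18.4% of all genes.

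Markers of several other cell types moved between the groups, and their part in the results for the mitotic genes was not tested. The counts below stand beside 17.6% of all genes called higher and 18.4% called lower. Of 10 macrophage markers 10 were lower, with summed levels of 5307 to 6174 CPM in wild-type and 954 to 1197 CPM in knockout libraries. Of 7 natural killer cell markers, 6 were tested and 6 were lower, with sums of 36.2 to 48.96 CPM against 1.34 to 2.45 CPM, and Prf1 was at 0 in a library. Fibroblast markers were higher for 6 of 7 and lower for 1, with sums of 3162 to 4023 CPM against 5338 to 10471 CPM. Epithelial markers of the carcinoma cells were present in all libraries and higher for 5 of 6, with sums of 2814 to 2932 CPM against 5458 to 5831 CPM. These 6 markers changed unequally, with log2 fold changes from 0.18 to 5.32. Adipocyte (5 of 5), skeletal muscle (5 of 6) and keratinocyte markers (6 of 6) were higher. Adipocyte sums were 50.2 to 85.0 CPM against 189 to 471 CPM, muscle sums 43.1 to 51.7 CPM against 56.5 to 72.9 CPM, and keratinocyte sums 72.2 to 126 CPM against 718 to 1596 CPM. Neutrophil markers were higher for 3 of 8, with sums of 233 to 280.1 CPM against 316 to 441 CPM. Endothelial markers were higher for 1 of 6 (16.7%), near the share of all genes. Their sums overlapped between the groups, at 207 to 287 CPM against 198 to 271 CPM.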

How the data were processed

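RNA of 6 tumor samples was sequenced, and group and replicate were taken from the titles. The authors deposited whole-number counts of reads per gene, not normalized. The submitters' processing notes name FastQC, STAR 2.6.0c, DESeq2 and the build GRCm38. The tables have the layout of STAR gene counts, which leave out reads with several alignments or with exons of more than 1 gene. Stranded columns held equal shares (50.1% to 50.2% in the first), so the unstranded column was used, in which a gene and an antisense partner cannot be separated. The 4 rows that name no gene stayed out: unmapped reads (30.8% to 54.6% of all reads), multimapping reads (3.12% to 4.39%), reads outside exons (9.24% to 18.9% of uniquely mapped reads) and ambiguous reads (4.98% to 6.23%). Gene counts totalled 37065778, 38334962 and 38399826 in wild-type and 30772729, 25239215 and 22081970 in knockout libraries, and a gene without a count could lie at up to 3 counts (0.0781 to 0.136 CPM), counting error alone considered. Of 54146 gene rows, 54079 were matched by identifier to GENCODE M21 (same build) for symbols, positions and exon lengths.

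The test was edgeR's quasi-likelihood F test (edgeR 4.0.16, R 4.3.3) after filterByExpr and TMM scaling (Benjamini-Hochberg adjustment over 19900 genes, threshold 0.05). SE is the size of a log2 fold change over the root of its F statistic, and 95% intervals use the moderated degrees of freedom. CPM values use TMM factors, and log2 CPM a prior count of 2. The fit was tested on simulated data. The members, gene lists and tests were chosen with earlier results of these data known. The text names all 46 members, with library values for those past the threshold and the 3 most abundant of each role, and up to 6 genes with the smallest p in each direction of each further list. Pkmyt1, Lin37 and Lin52 are named besides them. Alternatives were DESeq2 1.42.0, RLE factors, library totals, 2 other filters, a stranded column, robust estimation, each library left out, the replicate number as a block, mitochondrial and the 20 most abundant genes left out, libraries under 40% unmapped reads, 2 covariates and, added after seeing the data, removal of each library's GC trend (lowess, span 0.3). The result of 1 marker list is not reported here.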

Additional observations from a re-analysis of the deposited data

How the results depend on the processing

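With 20 mitotic genes higher and 0 lower in the fit reported, the number higher was 10 without a filter on low counts, 8 with only the libraries under 40% unmapped reads and 11 with the unmapped share as a covariate, with 1 lower in each of the last 2. It was 20 to 24 with DESeq2, RLE factors, library totals, the stricter filter or the stranded column. The same range held with robust estimation, the most abundant genes left out or the GC trend removed. These were 43.5% to 52.2% of the 46 genes, against 17.4% to 24.2% of all genes. With the stricter filter 50% were higher, against 24.2% of all genes. The number was 15 (32.6% against 14.2%) when the covariate was the share outside exons. Without a filter the share was 21.7%, against 7.82% of all genes. Leaving out single libraries gave 4 to 22 higher and 0 lower, and the lowest of these, without wild-type replicate 3, was 8.70% of the 46 genes against 8.76% of all genes. The median log2 fold change was 0.17 without a filter, 0.16 with only libraries under 40% unmapped, 0.32 with library totals, 0.32 with the stricter filter and 0.34 with the stranded column, and 0.18 to 0.32 with single libraries left out. The median over all genes was 0.26 without a filter, over 41649 genes, and 0.00 to 0.10 in the others. By medians alone, the mitotic genes thus lay above all genes in every fit but the unfiltered one. The shares called, given above, did not follow the medians in each fit.

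All genes higher numbered 2333 with the unmapped covariate and all genes lower 2238 with the covariate of reads outside exons, against 3506 and 3652, and leaving out single libraries gave 1821 to 4648 and 2257 to 4778. Genes of the 5 further lists, 23 higher and 17 lower, were 14 higher without a filter, 14 higher and 11 lower with the covariate of reads outside exons and 26 lower with only libraries under 40% unmapped, and 8 to 25 higher and 11 to 24 lower with single libraries left out. The replicate numbers did not pair the libraries (correlations of same-numbered deviations 0.05, -0.21 and -0.24), and a replicate block gave 18 mitotic genes higher and 0 lower.

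Over the 46 genes and 19 alternatives, direction and call were kept in 692 cases, the call was lost in 94 and gained in 21, and the sign turned in 67, all in genes that did not pass in the fit reported. The 692 cases include genes that did not pass and stayed so. All 94 losses were among the 20 called genes, of which 4 kept their call under every alternative. Without a filter the turned values were -0.081 for Cdk1, -0.046 for Ttk, -0.077 for Espl1, -0.080 for Nuf2, -0.078 for Hmmr and -0.027 for Ect2. With the covariate outside exons the turned values were -0.0095 for Cdk1, -0.026 for Ttk, -0.039 for Nuf2, -0.083 for Hmmr and -0.0080 for Ect2. With the GC trend removed the turned values were -0.012 for Cdk1, -0.14 for Espl1, 0.091 for Cenpe, 0.077 for Ndc80 and 0.040 for Kif18a. With only libraries under 40% unmapped the turned values were -0.11 for Plk1, -0.16 for Ttk, -0.13 for Aurkb, -0.26 for Espl1, -0.022 for Nuf2, 0.066 for Kif18a, -0.091 for Kif18b and -0.058 for Hmmr. With the unmapped covariate the turned values were -0.016 for Plk1, -0.076 for Ttk, -0.058 for Aurkb, -0.18 for Espl1, 0.023 for Ndc80, 0.10 for Kif18a, -0.0042 for Kif18b and -0.0039 for Hmmr. With the replicate block the turned value was -0.0033 for Espl1. With library totals the turned values were 0.058 for Cenpe and 0.037 for Ndc80. With the stricter filter the turned values were 0.062 for Cenpe and 0.043 for Ndc80. With the stranded column the turned values were 0.088 for Cenpe, 0.15 for Ndc80 and 0.033 for Kif18a. Without the most abundant genes the turned values were 0.032 for Cenpe and 0.013 for Ndc80. With single libraries left out, log2 fold changes ran from -0.085 to 0.058 for Cdk1, -0.033 to 0.093 for Ttk, -0.044 to 0.19 for Aurkb, -0.12 to 0.084 for Espl1, -0.084 to 0.027 for Cenpe, -0.14 to 0.075 for Ndc80, -0.095 to 0.087 for Nuf2, -0.22 to 0.024 for Kif18a, -0.11 to 0.085 for Hmmr and -0.077 to 0.15 for Ect2. The cause was not tested. The lowest wild-type mean among the 46 genes was 16.2 CPM, and 3 libraries per group limit the precision.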
